A study of Rattus norvegicus with 8 samples.

Results

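The regions described here are stretches of RNA of 200 bp or more, by their deposited length, whose N6-methyladenosine (m6A) signal differed between Mettl3-overexpressing and vector control primary rat vascular smooth muscle cells (VSMCs), the contractile cells of the artery wall. They were chosen by joining the authors' deposited table of higher regions and the authors' deposited table of lower regions and keeping each row of that length. There were 571 such regions among 1967, or 29.0%, and they carried 530 of the 1726 gene names in the authors' deposited tables. The other 1396 regions were under 200 bp.

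The m6A mark is the most common internal mark of messenger RNA. Mettl3 is the catalytic subunit of the writer complex, Mettl14 its partner and Rbm15b one of the adaptors that bring the complex to RNA. YTH domain proteins read the mark, and the demethylases Fto and Alkbh5 remove it; the mark is known to bear on the splicing, translation and decay of the transcripts that carry it, and it lies mostly near stop codons, in 3′ untranslated regions and in long internal exons. MeRIP-seq pulls down RNA fragments with an antibody against m6A and sequences them beside an input that was not pulled down.

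The study had 8 libraries in 4 groups of 2: m6A immunoprecipitation (IP) and input from Mettl3-overexpressing cells, and IP and input from cells with a control vector. All were primary rat cells without any other stated treatment; the labels used here give neither the vehicle of overexpression nor the strain, sex or age of the rats, and do not say whether the samples of a group are separate cell isolations. RNA was broken with zinc into short fragments before the pulldown. The authors' deposited tables hold 1 comparison, Mettl3-overexpressing against vector cells, with a fold, a p-value and an adjusted p for each region and no value per library. No spread between libraries and no depth can therefore be given for any region, and p-values measure at most the spread between 2 libraries a group, which may be technical. A fold above 1 is deposited for both directions, so every fold given here runs in the direction named beside it. In bulk RNA, less m6A on a transcript, less of that transcript and fewer cells that carry it cannot be told apart. A list of differing regions holds no expression level, so the labelled cell type was not checked; of 8 smooth muscle markers 2 had a region, none of them long, and the 5 endothelial, 4 leukocyte and 3 adventitial markers examined had none.

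Length was measured on the same contrast as direction, fold and p. What follows on these measures is a description, without a test, and the intervals given for shares are exact Clopper-Pearson intervals at 95% that cover counting only.

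The long regions lay mostly on the lower side, as did the shorter ones. Of the 571 long regions in the authors' deposited tables, 504 were lower and 67 were higher in Mettl3-overexpressing cells, so that 88.3% were lower (interval 85.3 to 90.8%). Of the 1396 shorter regions, 1206 were lower and 190 were higher, or 86.4% lower (84.5 to 88.1%). These intervals overlap. Long regions made up 29.5% of the 1710 lower regions and 26.1% of the 257 higher ones.

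The deposited lengths were unevenly spread. Median length was 132 bp for lower and 127 bp for higher regions in the authors' deposited tables, and the upper tails differed more, with 90th percentiles of 369 bp and 298 bp. A single length, 379 bp, held 138 of the 571 long regions, 130 of them lower and 8 higher. The next most frequent length, 199 bp, lay just under the limit, with 51 regions, and 219 bp followed with 31. Edges also fell on a common spacing: in 337 long regions (59.0%) the deposited start was 1 above a multiple of 20 and the deposited end a multiple of 20, against 89 shorter ones (6.38%). The deposited length is the end minus the start, so 379 bp stands for 380 bases when both ends are counted, which is the span of 10 windows of 200 bases set 20 bases apart. The sources used here do not say how the authors placed windows. Regions with both edges on this spacing therefore have lengths in steps of 20 bp, and a length in bp is not by itself the length of a methylated stretch.

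**Figure D1:**
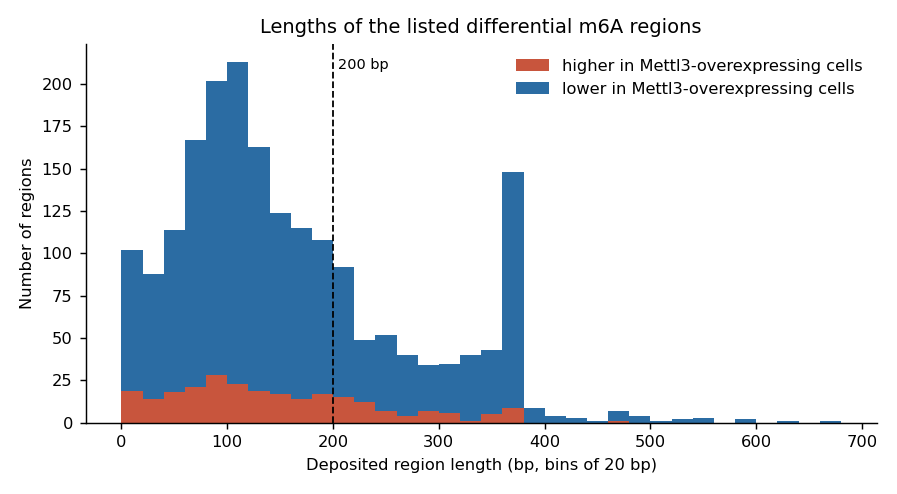
Number of listed regions (vertical axis) by deposited length in bins of 20 bp (horizontal axis), with higher regions in red and lower regions in blue stacked on them; the dashed line marks 200 bp. Most regions lie under 200 bp, and the tall bar right of it holds the 138 regions of 379 bp.

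The lower share was not the same along the length scale. It was 85.1% in the 673 regions under 100 bp, 87.8% in the 672 regions of 100 to 198 bp and 84.3% in the 51 regions of 199 bp. Among long regions it was 83.1% at 200 to 299 bp (interval 78.1 to 87.4%, 222 lower and 45 higher) and 92.4% at 300 to 399 bp (88.6 to 95.2%, 254 lower and 21 higher). At 400 bp or more, 28 of 29 regions were lower (96.6%, 82.2 to 99.9%). The regions of 200 to 299 bp were thus no more often lower than the shorter ones, while those of 300 to 399 bp had an interval that lay above that of the 200 to 299 bp class. The 138 regions of 379 bp were 94.2% lower (88.9 to 97.5%), and without them the lower share of long regions was 86.4%.

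Regions were taken to pass when the authors' adjusted p was under 0.05. In the authors' deposited tables, 109 long regions passed (19.1%, interval 15.9 to 22.6%), against 166 shorter ones (11.9%) and 14.0% of all 1967. Among lower regions 95 long ones passed (18.8%, 15.5 to 22.5%), against 128 shorter ones (10.6%, 8.93 to 12.5%), with 13.0% of all lower regions passing. Among higher regions 14 long ones passed (20.9%, 11.9 to 32.6%), against 38 shorter ones (20.0%, 14.6 to 26.4%), with 20.2% of all higher regions passing. At this threshold the larger passing share of long regions was thus on the lower side, while on the higher side the intervals cover each other. At an adjusted p under 0.01, 44 long lower regions (8.73%, 6.41 to 11.5%) remained, against 50 shorter ones (4.15%, 3.09 to 5.43%). On the higher side 7 long regions (10.4%, 4.30 to 20.3%) remained, against 11 shorter ones (5.79%, 2.93 to 10.1%). The share of long regions was then the larger in both directions, although the intervals of the higher regions overlap. Of all lower, all higher and all regions, 5.50%, 7.00% and 5.69% remained. By class, 47 regions of 200 to 299 bp (17.6%), 52 of 300 to 399 bp (18.9%) and 10 of 400 bp or more (34.5%, 17.9 to 54.3%) passed. Length, p and fold come from the same IP libraries, so these shares are no evidence apart from the lengths themselves.

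**Figure D2:**
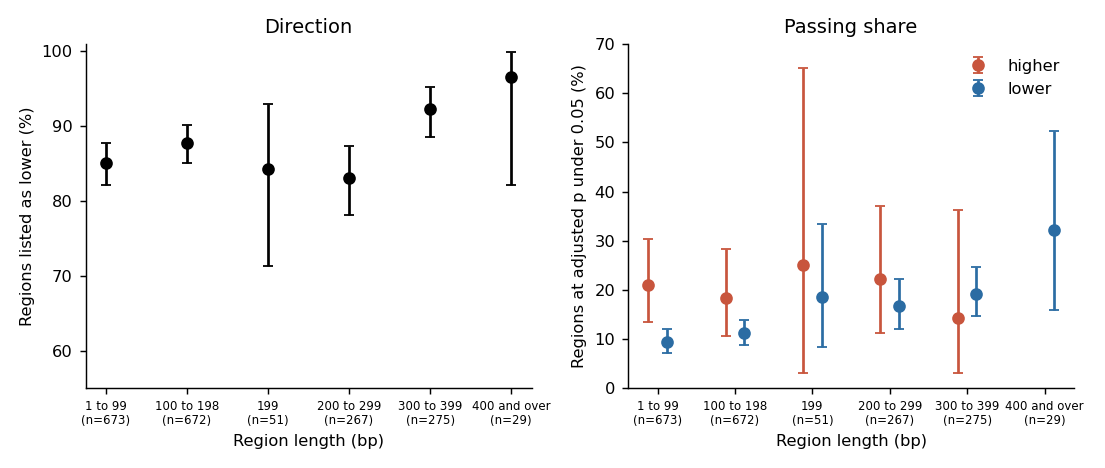
Left, the share of regions listed as lower in Mettl3-overexpressing cells (percent, axis from 55) by length class in bp; right, the share at an adjusted p under 0.05 for higher (red) and lower (blue) regions; bars are exact 95% Clopper-Pearson intervals that cover counting only. The lower share is 83.1% at 200 to 299 bp and 92.4% at 300 to 399 bp; the single higher region of 400 bp or more, which passed, is not drawn on the right.

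Median folds of long and shorter regions were close, and many of them rest on a mean of 0. The median fold was 26.1 for long lower regions and 26.2 for shorter lower ones in the authors' deposited tables, and 23.2 for long higher regions and 26.9 for shorter higher ones. Such folds have a single decimal, the form that a mean of 0 in one condition gives when 0.1 is added to both means, so their size depends on that constant. Such an implied 0 was found for 366 long lower regions (72.6%), against 1049 shorter lower ones (87.0%). Among higher regions it was found for 34 long ones (50.7%), against 108 shorter ones (56.8%). Long lower regions thus more often had signal in both conditions. Among regions without an implied 0, 138 of the 171 long ones were lower, against 157 of the 239 shorter ones.

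The number of reads behind an implied 0 was inferred from steps in the folds and is not a value of the tables. Where the overexpressing cells had an implied 0, long lower regions had a median of 6 vector reads over both libraries (quartiles 5 and 8, range 4 to 24) and shorter ones 5 (quartiles 4 and 7, range 4 to 46). Where the vector cells had it, long higher regions had a median of 35 reads in overexpressing cells (range 18 to 80) and shorter ones 30 (range 18 to 83). In the folds, 1 vector read counted as much as 4.09 reads from overexpressing cells; the depths that would show whether that is fair were not analysed here. With 3 reads in place of each implied 0, the median fold was 8.16 for long lower regions and 6.86 for shorter ones, and 4.32 for long higher regions and 4.09 for shorter ones. In the regions without an implied 0, the median fold was 6.32 in the 138 long lower ones and 6.62 in 157 shorter ones, and 6.93 in the 33 long higher ones and 6.82 in 82 shorter ones. Of these, 42 long lower regions passed, against 35 shorter ones, and 6 long higher regions passed, against 14 shorter ones. These medians keep that weight. Below, "at least" goes before a fold with 3 reads in place of an implied 0, and is the smaller of the values with and without the weight: a plain ratio of reads for lower regions, and the weighted fold for higher ones. It is not a statistical lower bound, since the other count is itself inferred, often small, and taken as exact.

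The regions nearest to the 200 bp limit had these values. On the lower side, the shortest long regions were in Aff1 (200 bp, fold 8.79, adjusted p 0.191), Lingo1 (201 bp, fold 46.5, adjusted p 0.0787) and Tor2a (201 bp, fold 31.2, adjusted p 0.159) per the authors' deposited table. Behind Lingo1 and Tor2a stood 9 and 6 implied vector reads against an implied 0, at least 3.0-fold and at least 2.0-fold lower. The 3 regions of 199 bp with the smallest p on that side were in Wtip (fold 6.45, adjusted p 2.18e-06), Tenc1 (fold 4.66, adjusted p 0.000242) and Rlim (fold 4.57, adjusted p 0.00644) per the authors' deposited table. On the higher side, the shortest long regions were in AABR06024257.1, AABR06063627.1 and AABR06078887.1, of 200 to 202 bp, with folds of 23.2, 49.0 and 4.35 and none passing in the authors' deposited table. Behind AABR06024257.1 and AABR06063627.1 stood 18 and 39 implied reads against an implied 0 in vector cells, at least 1.47-fold and 3.18-fold higher. The higher regions of 199 bp with the smallest p were in Rab20 (fold 58.8, adjusted p 0.024), Tgif2-ps1 (fold 60.0, adjusted p 0.0489) and Crybg3 (fold 51.4, adjusted p 0.0588) per the authors' deposited table. Behind them stood 47, 48 and 41 implied reads against an implied 0 in vector cells. They come to at least 3.83-fold, 3.91-fold and 3.34-fold higher. With 51 regions tied at 199 bp, 10 of them passing, the ones named at that length are those with the smallest p. Lingo1 and Tor2a were likewise those with the smallest p among the 7 lower regions of 201 bp. The 2 sides of the limit were thus picked only partly alike.

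The writer itself had a long region on the higher side. In the authors' deposited table a Mettl3 region of 217 bp, on chromosome 15 from 32523365 to 32523582, was 128.8-fold higher in Mettl3-overexpressing cells, with an adjusted p of 0.000227. It had the largest fold of the 67 long higher regions. The amount of Mettl3 RNA in the input libraries was not analysed here, so more m6A on this RNA and more of this RNA cannot be told apart. A shorter Mettl3 region of 166 bp was also higher (fold 127.7, adjusted p 9.73e-05) per the authors' deposited table, and one of 21 bp was lower there (fold 233.6, adjusted p 3.50e-06). Behind the lower one stood 46 implied vector reads against an implied 0 in overexpressing cells. It was at least 15.3-fold lower, or 63.0-fold with the weight on vector reads. The 2 higher Mettl3 regions had no implied 0. The sources used here do not give the genome build of the positions; it is not GRCr8, the build of the RefSeq gene table used for current names, since positions on chromosome 4 reach 248209735 and the last GRCr8 gene there ends at 184404305. Positions within transcripts were not analysed here.

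Of 27 writers, erasers and readers of m6A, 5 had a listed region and 2 had a long one. The other long region was in Rbm15b, on chromosome 8 from 114978141 to 114978480, lower in Mettl3-overexpressing cells at a fold of 51.3 (adjusted p 0.036) per the authors' deposited table. Behind it stood 10 implied vector reads and an implied 0 in overexpressing cells, which makes it at least 3.33-fold lower; with the weight on vector reads the same count gives 13.6-fold. Both of these genes had a passing long region, as did 104 of the 530 gene names with a long region (19.6%). Mettl3 is the gene that was overexpressed, so Rbm15b held the only long region of this list outside that gene.

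Taok1 had the smallest p of the long higher regions after Mettl3, and Agpat5, Pragmin and Keap1 came next. Taok1, a kinase upstream of the Hippo and stress kinase pathways, had a region of 204 bp on chromosome 10 (62296957 to 62297161) at a fold of 89.6 (adjusted p 0.00074) per the authors' deposited table. Behind it stood 72 implied reads in overexpressing cells against an implied 0 in vector cells, at least 5.87-fold higher. Keap1, the adaptor that targets the antioxidant regulator Nrf2 for breakdown, had 80 implied reads against an implied 0 (chromosome 8, 22305941 to 22306240; fold 99.4, adjusted p 0.0025, authors' deposited table), at least 6.52-fold higher. Both genes had more implied reads behind them than any long lower region with an implied 0, although a vector read weighed more.

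Pragmin (now Prag1), a pseudokinase scaffold, and Camsap1, which binds the minus ends of microtubules, also had implied zeros in vector cells. Their folds of 82.2 (219 bp, adjusted p 0.00197) and 72.3 (263 bp, adjusted p 0.00522) per the authors' deposited table come to at least 5.38-fold and at least 4.72-fold higher. Mtcl1, which crosslinks microtubules, had a region of 379 bp at a fold of 8.62 (adjusted p 0.0151, authors' deposited table). Agpat5, an acyltransferase of phospholipid synthesis, had a region of 259 bp at a fold of 16.6 (adjusted p 0.0017, authors' deposited table). The regions of Mtcl1 and Agpat5 had no implied 0, so signal was present in both conditions.

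Further passing higher regions lay in Rest, Trps1, Zfp498, Zbtb39 and Olr1075. Rest, which silences neuronal genes outside the nervous system, had a region of 219 bp on chromosome 14 (32930381 to 32930600) at a fold of 5.60 (adjusted p 0.0142) per the authors' deposited table. Trps1, a GATA-binding repressor, had a region of 379 bp at a fold of 9.95 (adjusted p 0.0127, authors' deposited table). Zfp498 (now Zscan25) and Zbtb39 had implied zeros in vector cells, with 55 and 47 implied reads in overexpressing cells and folds of at least 4.49 and at least 3.83. The longest of the 67 higher regions, 474 bp, was assigned to the olfactory receptor gene Olr1075 (fold 66.2, adjusted p 0.0244; 53 implied reads) in the authors' deposited table. Receptor genes of this family are similar in sequence, so that assignment is uncertain.

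On the lower side, the long regions with the smallest p had signal in both conditions. Zfp609, a zinc finger gene, had a region of 345 bp on chromosome 8 (70923655 to 70924000) that was 5.20-fold lower in Mettl3-overexpressing cells (adjusted p 2.00e-07) per the authors' deposited table. Taf5l, a subunit of a histone acetylase complex, had one of 339 bp on chromosome 19 (67498341 to 67498680) that was 22.9-fold lower (adjusted p 3.71e-07, authors' deposited table). Numa1, which organises the poles of the mitotic spindle, was 6.36-fold lower over 319 bp (adjusted p 2.45e-05), and Arhgap5, a GTPase activating protein, was 9.64-fold lower over 239 bp (adjusted p 2.99e-05) per the authors' deposited table. Golgb1, a large Golgi tether, was 11.3-fold lower over 339 bp (adjusted p 1.45e-05, authors' deposited table). None of these 5 had an implied 0 in either condition.

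Armcx4 on the X chromosome was 7.02-fold lower over 399 bp (adjusted p 4.18e-05), Slc35c1, the Golgi transporter of GDP-fucose, was 13.4-fold lower over 379 bp (adjusted p 6.00e-05) and F8a1 was 15.5-fold lower over 350 bp (adjusted p 0.00046) per the authors' deposited table. Zfp217, a transcriptional regulator on chromosome 3, had 22 implied vector reads against an implied 0 in overexpressing cells. Its fold of 111.8 in the authors' deposited table (215 bp, adjusted p 4.76e-05) comes to at least 7.33-fold lower. E2f3, a transcription factor of cell cycle entry, had 24 implied vector reads, the most of the long lower regions with an implied 0. This region of 399 bp lay on chromosome 17 (37715921 to 37716320). Its fold of 122.1 in the authors' deposited table (adjusted p 0.000211) comes to at least 8.0-fold lower, or 32.8-fold with the weight on vector reads. Another E2f3 region of 266 bp rested on 4 implied vector reads and did not pass (adjusted p 0.248).

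**Figure D3:**
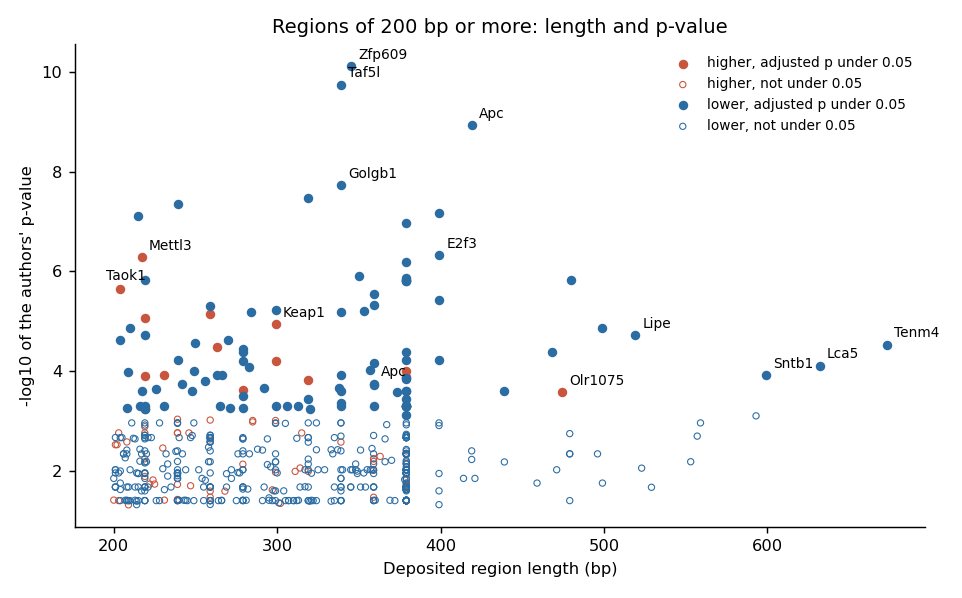
Each of the 571 regions of 200 bp or more by deposited length (bp) and by −log10 of the authors' p-value; red is higher and blue lower in Mettl3-overexpressing cells, and filled points have an adjusted p under 0.05. Zfp609, Taf5l and Apc stand at the top among lower regions, Mettl3 and Taok1 among higher ones, and a column of points stands at 379 bp.

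Beyond the 43 passing long regions in genes named by rule, further ones are given here by what their genes do, chosen after their values were seen. On the lower side, Nrip1, a nuclear receptor corepressor, was 23.7-fold lower over 399 bp (adjusted p 0.00108, authors' deposited table), and Med13, a Mediator subunit, was 7.65-fold lower over 468 bp (adjusted p 0.00644), both with signal in both conditions. Tbx18, a T-box factor of mural cell precursors, had 284 bp on 16 implied vector reads against an implied 0 (fold 81.6, adjusted p 0.00159, authors' deposited table), at least 5.33-fold lower. Olfm2, known as a promoter of smooth muscle differentiation, was 10.1-fold lower over 339 bp (adjusted p 0.00159, authors' deposited table).

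Nipbl, which loads cohesin, was 7.46-fold lower over 299 bp (adjusted p 0.00152, authors' deposited table), and Esco1, which acetylates cohesin, was 9.90-fold lower over 219 bp (adjusted p 0.0389). The DNA repair and replication genes Slx4 (4.86-fold), Helb (8.40-fold), Shprh, Ercc6, Atad5 and Chtf8 passed as lower too, the last 4 on 10 to 13 implied vector reads in the authors' deposited table. Kif11, the motor that separates spindle poles, was 9.22-fold lower over 208 bp (adjusted p 0.0377, authors' deposited table). No list for DNA repair was examined, so these are single regions and not a count of that pathway.

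The ubiquitin ligase genes Rnf103, Rnf111 and Rlim were 5.57-fold, 6.23-fold and 4.57-fold lower (adjusted p 0.000867, 0.00157 and 0.00644, authors' deposited table), with signal in both conditions. Of 10 Rnf and Trim genes with a listed region, 5 had a long one and 5 had shorter regions only. All 5 long regions were lower and 2 passed, while those of Rnf182, Rnf217 and Rnf6 did not. Of all long regions, 88.3% were lower and 19.1% passed. N4bp1, which binds a ubiquitin ligase, had 379 bp on 22 implied vector reads (adjusted p 0.000539, authors' deposited table), at least 7.33-fold lower. Gba2, a glucosylceramidase, and Cyp2j3, a cytochrome P450, had 18 and 21 implied vector reads over 379 bp each, at least 6.0-fold and 7.0-fold lower; Cyp2j genes are similar in sequence, so that assignment is uncertain. Egln3, an oxygen-sensing prolyl hydroxylase, had 379 bp on 11 implied vector reads (fold 56.3, adjusted p 0.024, authors' deposited table), at least 3.67-fold lower. Sspn, a partner of the dystrophin complex like Sntb1, had 379 bp on 10 (adjusted p 0.036, authors' deposited table), at least 3.33-fold lower.

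The longest regions were nearly all lower. Tenm4, a teneurin (a large transmembrane protein of cell recognition), held the longest of the 571, 673 bp on chromosome 1 (168093701 to 168094374), which was 4.83-fold lower at an adjusted p of 0.00485 per the authors' deposited table. Among named genes, Lca5, which encodes a ciliary protein, followed with 632 bp, 5.79-fold lower (adjusted p 0.0105, authors' deposited table). Sntb1, a syntrophin of the dystrophin complex, held 599 bp with 12 implied vector reads against an implied 0 (fold 61.4, adjusted p 0.0137, authors' deposited table), at least 4.0-fold lower. Lipe, the hormone-sensitive lipase, held 519 bp with 15 implied vector reads against an implied 0 (fold 76.4, adjusted p 0.0036, authors' deposited table), at least 5.0-fold lower. These 4 passed. Of the other named genes among the 6 longest, Olr89 at 559 bp (fold 46.3, adjusted p 0.0592) and the calcium channel gene Cacna1d at 523 bp (fold 7.32, adjusted p 0.159) per the authors' deposited table did not pass.

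Some gene names held more than 1 long region. Of the 530 gene names with a long region, 496 had 1 and 34 had 2 or more. Macf1 had 4, and the unnamed AABR06024257.1 had 5. In 3 genes 2 or more long regions passed, Macf1, Apc and Cenpf, all lower, while 104 gene names had a passing long region at all.

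Macf1, a giant protein that links microtubules to actin, had 4 long regions on chromosome 5, and all 4 passed in the lower direction. The first, of 379 bp (144909901 to 144910280), was 24.8-fold lower at an adjusted p of 0.000267 per the authors' deposited table and had no implied 0. The second, of 204 bp (144911676 to 144911880), rested on 16 implied vector reads (adjusted p 0.00428, authors' deposited table). The third, of 499 bp (144949901 to 144950400), rested on 15 (adjusted p 0.00285), and the fourth, of 359 bp (144950921 to 144951280), on 17 (adjusted p 0.00129), per the authors' deposited table. With an implied 0 in overexpressing cells, these 3 come to at least 5.33-fold, 5.0-fold and 5.67-fold lower, or 21.8-fold, 20.5-fold and 23.2-fold with the weight on vector reads. The 2 shorter Macf1 regions were lower and did not pass.

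Apc, the scaffold that holds beta-catenin in check, had 2 long regions on chromosome 18 with signal in both conditions. The region of 419 bp (26818201 to 26818620) was 4.84-fold lower with an adjusted p of 1.42e-06, and that of 359 bp (26817221 to 26817580) was 4.02-fold lower at an adjusted p of 0.0192 per the authors' deposited table. Cenpf, a kinetochore protein of dividing cells, had one of 379 bp on 18 implied vector reads (adjusted p 0.00052), at least 6.0-fold lower, and one of 249 bp that was 5.05-fold lower (adjusted p 0.0127) per the authors' deposited table.

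Dst, another giant linker, differed from Macf1 in support. It had 2 long lower regions that did not pass (folds 4.62 and 6.43, authors' deposited table) and 4 shorter ones, of which 3 were lower and 1 higher, with 2 passing. A long region was therefore not in each gene the better supported one.

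In some other genes with 2 or more long regions, 1 of them passed. Cdk13, a kinase of RNA polymerase II, had one of 379 bp that passed on 10 implied vector reads (fold 51.3, adjusted p 0.036, authors' deposited table) and, close by, one of 239 bp that did not (fold 10.96, adjusted p 0.137). Bnc2, a zinc finger gene, and B4galnt4, a glycosyltransferase gene, likewise had 1 passing lower region each. In Kcnd3, Spg11, Alms1, Shank2, Akap13, Gprin3, Plin4, Eras, Dsp, Zfp697, Pcdhb17, Ttc30b and Olr1135 both long regions were listed as lower without passing, and in Ccdc88c, Hist1h1b and Sft2d3 both were listed as higher without passing.

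**Figure D4:**
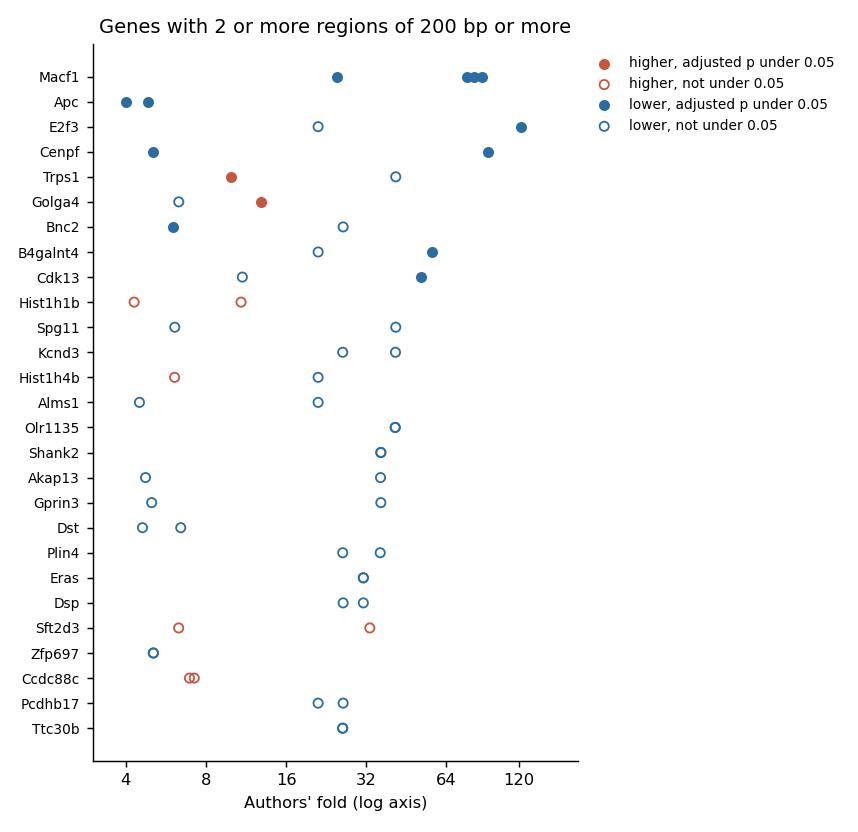
Authors' fold (log axis) of each long region in 27 named genes with 2 or more; red is higher and blue lower in Mettl3-overexpressing cells, filled points have an adjusted p under 0.05, and genes run from those with most long regions at the top, then by smallest p. The 4 Macf1 regions are all filled and blue, and Trps1, Golga4 and Hist1h4b have points of both colours. The Hist1h4b points lie on different chromosomes.

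Some of the neighbouring pairs of long regions in a gene were close together. Of 40 such pairs, 15 lay less than 1000 bp apart and 16 lay at least 10000 bp apart. In 6 pairs both regions had the same fold and p, as in Eras (31.2-fold lower each, 6 implied vector reads, 101462 bp apart) and Shank2 (36.3-fold lower each, 7 implied vector reads, 2300021 bp apart) in the authors' deposited table. Equal values were also shared more widely. The single most frequent pair of fold and p had a fold of 21.1 (adjusted p 0.248) by the authors' deposited table, on 4 implied vector reads. It was shared by 50 of the 504 long lower regions (9.92%) and by 181 of the 1206 shorter lower ones (15.0%). The reason for the equal values was not tested.

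Long regions of opposite direction occurred in 5 gene names. In Trps1 the higher region of 379 bp passed, and a lower one of 259 bp (fold 41.3, adjusted p 0.0787; 8 implied vector reads) did not in the authors' deposited table. In Golga4, a golgin of the trans-Golgi network, a higher region of 319 bp passed (fold 12.9, adjusted p 0.0168), and a lower one of 259 bp did not (fold 6.32, adjusted p 0.0893) per the authors' deposited table. The others were the histone symbol Hist1h4b and the unnamed AABR06024257.1 and AABR06086628.1, without a passing long region. The Hist1h4b regions shared a symbol but not a place. The higher one lay on chromosome 17 (45527601 to 45527809) and the lower one on chromosome 4 (234405141 to 234405448), under different transcripts. Counting regions of any length, 16 of the 530 gene names with a long region and 29 of the 1196 without had regions in both directions.

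The gene lists were chosen with earlier results of these data known, so their counts are a description. Over all lists, 66 of 307 genes had a listed region and 24 had a long one, or 36.4% of the 66, beside 30.7% of all 1726 gene names. In 10 of the 24 genes a long region passed, 8 lower and 2 higher, beside 104 of all 530 gene names with a long region (19.6%), 90 lower and 14 higher; with regions of any length, 15.0% of all 1726 gene names had a passing one. The lists are small, and whether their counts differ from these shares was not tested.

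None of the 24 contractile genes had a long region, and only 3 had a listed region at all, where 30.7% of all gene names with a region had a long one. None of the 30 matrix and adhesion genes or of the 28 genes of SGK1, PI3K and mTOR signalling had a long region either, with 3 and 5 of them listed. Of the 18 genes of the synthetic state of smooth muscle, Klf4, a factor that represses contractile genes, had a lower long region of 259 bp that did not pass, on 4 implied vector reads (fold 21.1, adjusted p 0.248) per the authors' deposited table. Smad3, which carries TGF-beta signals to the nucleus, had a lower region of 319 bp on 8 implied vector reads that did not pass either (fold 41.2, adjusted p 0.0787, authors' deposited table).

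Of the 33 Hippo, Wnt and Notch genes, 12 had a listed region and 6 a long one. Long regions passed in 3 of the 6, lower in Apc and Jag1 and higher in Taok1, beside 104 of all 530 gene names with a long region (19.6%). Jag1, a Notch ligand, had 313 bp on chromosome 3 (136558687 to 136559000) on 10 implied vector reads (fold 51.3, adjusted p 0.036) per the authors' deposited table, at least 3.33-fold lower. The other 3, also listed as lower but not passing, were the Hippo kinase Stk4 (fold 4.65, adjusted p 0.0787), the Wnt co-receptor Lrp6 (fold 7.90, adjusted p 0.112) and the receptor Notch3 (fold 21.2, adjusted p 0.248; 4 implied vector reads) per the authors' deposited table.

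Of 27 giant cytoskeletal linkers, 15 had a listed region and 5 of these had long ones (33.3%, beside 30.7% of all gene names), which came to 12 long regions, all listed as lower, where 88.3% of all long regions were. They included Macf1, Dst, Nav3 and Mycbp2, and long regions passed in Macf1 and in Nav3 (271 bp, fold 9.24, adjusted p 0.0377) per the authors' deposited table. Mycbp2 is annotated as a ubiquitin ligase, so the counts of this list are not of linkers alone. Of 19 teneurins, protocadherins and related adhesion proteins, 5 had a region, and each of these was long and listed as lower, beside 30.7% of all gene names with a long region. That depends on the members listed: of all 11 protocadherin genes with a region, 8 had a long one and 3 had shorter regions only. Tenm4 passed; Tenm2 (5 implied vector reads) and Fat2, Celsr1 and Pcdh1 (4 each) did not. Of 37 chromatin regulators, 11 had a region and 3 a long one: Crebbp, a histone acetylase, passed as lower (339 bp, fold 61.2, adjusted p 0.0359 per the authors' deposited table; 12 implied vector reads, at least 4.0-fold lower), and the methyltransferase genes Kmt2c (lower) and Dnmt1 (higher) did not. Of 26 cell cycle and growth genes, E2f3 had long regions, and of 27 TGF-beta and BMP genes, Smad3 had one.

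Some gene families, grouped by symbol after their values were seen, held more of the long regions than of the shorter ones. Zinc finger genes (symbols beginning with Zfp, Znf, Zbtb, Zscan or Zkscan) made up 30 of the 530 gene names with a long region (5.66%, interval 3.85 to 7.98%), against 18 of the 1196 with shorter regions only (1.51%, 0.894 to 2.37%). Of their 31 long regions, 26 were lower, of which 7 passed, and 5 were higher, of which 2 passed, beside 95 of the 504 lower and 14 of the 67 higher long regions in all. The families below are small, and their counts of lower and passing regions are to be read beside the 88.3% lower and 19.1% passing of all long regions. Besides Zfp609 and Zfp217, the passing lower ones included Zfp180, Zfp839, Zfp41, Zfp668 and Zfp280d.

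Protocadherin genes, whose clustered members give neurons their surface identity, accounted for 8 gene names with a long region (1.51%, interval 0.654 to 2.95%). Another 3 had shorter regions only (0.251%, 0.0518 to 0.731%). Their 9 long regions were all listed as lower and none passed, with folds of 5.74 (Pcdha7 and Pcdha9) to 41.3 (Pcdhga10) in the authors' deposited table. Histone genes accounted for 6 names (1.13%, 0.417 to 2.45%), against 2 (0.167%, 0.0203 to 0.603%), with 4 long regions lower and 4 higher, none passing. The linker histone gene Hist1h1b (now H1f5) had 2 higher ones (folds 10.8 and 4.30, adjusted p 0.0592 and 0.248, authors' deposited table). Olfactory and vomeronasal receptor genes accounted for 6 names (1.13%, 0.417 to 2.45%), against 3 (0.251%, 0.0518 to 0.731%). In each of these families the intervals overlap. These families hold near-identical copies, and the sources used here do not say how reads shared by copies were counted, so single members are uncertain.

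Solute carrier genes accounted for 7 names with a long region (1.32%), against 20 with shorter regions only (1.67%). RNA helicase genes (Ddx and Dhx) accounted for 2 (0.377%), against 7 (0.585%). Kelch-like genes, many of them substrate adaptors of ubiquitin ligases, accounted for 5 names with a long region (0.943%, interval 0.307 to 2.19%). Against these stood 1 with a shorter region only (0.0836%, 0.00212 to 0.465%), and the intervals overlap. All 5 regions were listed as lower, and Klhl42 passed (399 bp, fold 66.5, adjusted p 0.00831) per the authors' deposited table. Symbols of unnamed genes (LOC, RGD or AABR) accounted for 80 long regions (14.0%), against 99 shorter ones (7.09%).

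The functional annotations in the tables were counted as well, and the terms given were picked from 250 after their values were seen, without a test. A molecular function was annotated for 403 gene names with a long region and for 907 with shorter regions only. Nucleic acid binding was carried by 29 of these with a long region (7.20%, interval 4.87 to 10.2%), against 26 (2.87%, 1.88 to 4.17%). Metal ion binding was carried by 57 (14.1%, 10.9 to 17.9%), against 86 (9.48%, 7.65 to 11.6%). Transcription factor activity was carried by 35 (8.68%, 6.12 to 11.9%), against 44 (4.85%, 3.55 to 6.46%), and activity as a G-protein coupled receptor by 11 (2.73%, 1.37 to 4.83%), against 5 (0.551%, 0.179 to 1.28%). The nucleic acid and metal ion terms take in zinc finger genes, so these counts and the family counts share members.

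Other functions were carried by a smaller share of the gene names with a long region. Poly(A) RNA binding was annotated for 26 (6.45%, 4.26 to 9.31%), against 92 (10.1%, 8.26 to 12.3%), and GTPase activator activity for 7 (1.74%, 0.701 to 3.55%), against 36 (3.97%, 2.80 to 5.45%). By location in the cell, the nucleus was annotated for 147 of 407 (36.1%, 31.4 to 41.0%), against 315 of 997 (31.6%, 28.7 to 34.6%). The cytosol was annotated for 33 (8.11%, 5.65 to 11.2%), against 133 (13.3%, 11.3 to 15.6%), and the mitochondrion for 21 (5.16%, 3.22 to 7.78%), against 92 (9.23%, 7.50 to 11.2%). Apart from the cytosol, the intervals given here overlap.

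A KEGG pathway was annotated for 148 gene names with a long region and for 392 with shorter regions only. Metabolic pathways held 13 of these with a long region (8.78%, interval 4.76 to 14.6%), against 73 (18.6%, 14.9 to 22.8%). Phosphatidylinositol signalling held 0 of 148 (interval 0 to 2.46%), against 18 (4.59%). Calcium signalling held 9 (6.08%, 2.82 to 11.2%), against 8 (2.04%, 0.885 to 3.98%).

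The 9 calcium signalling genes included the channel subunits Cacna1b, Cacna1d and Cacna1g, the receptors Adora2b, Bdkrb2 and Ntsr1, the phosphorylase kinase subunit Phka2 and the store sensor Stim2. All 9 long regions were listed as lower and 2 passed, beside 88.3% lower and 19.1% passing among all long regions. Those that passed were Stim2 (239 bp, fold 66.4, adjusted p 0.00831; 13 implied vector reads) and Ntsr1 (379 bp, fold 51.3, adjusted p 0.036; 10 implied vector reads) in the authors' deposited table. Over the 250 terms with at least 10 genes, the shares of the 2 sets differed by more than 4 percentage points in either direction for 8, and those 8 are the terms drawn.

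**Figure D5:**
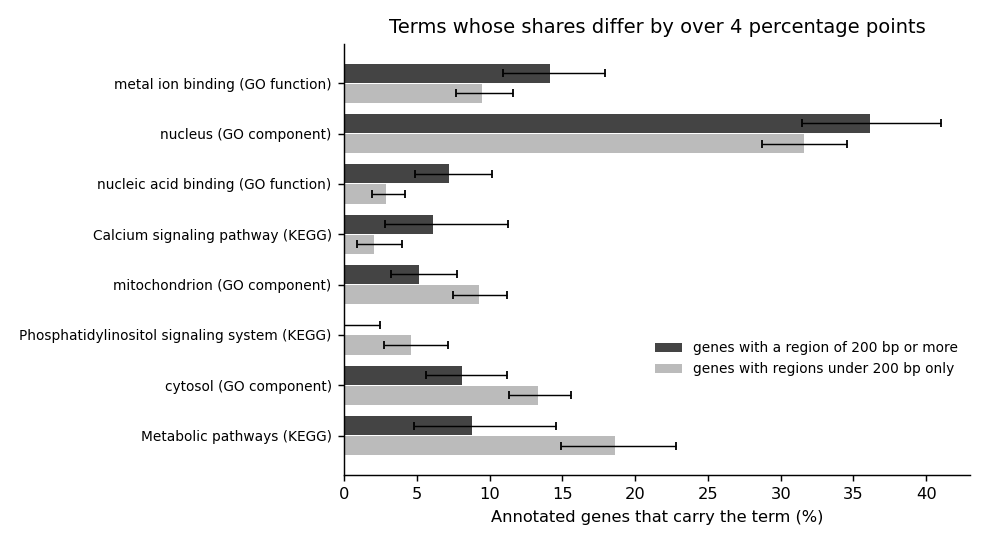
Share of annotated genes that carry a term (percent) for genes with a region of 200 bp or more (dark) and genes with regions under 200 bp only (grey), for the 8 terms whose shares differ by over 4 percentage points; bars are exact 95% Clopper-Pearson intervals that cover counting only. Nucleic acid binding and calcium signalling stand higher in the dark bars, metabolic pathways and cytosol in the grey ones.

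By chromosome, the share of long regions is a description of counts, without a test, beside 29.0% over all. It was smallest on chromosome 12 (9 of 67, 13.4%, interval 6.33 to 24.0%) and largest on chromosome 17 (28 of 63, 44.4%, interval 31.9 to 57.5%).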

How the data were processed

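The data are the authors' own comparison of m6A IP signal in Mettl3-overexpressing and vector VSMCs, 2 IP libraries each, as listed regions. Per the submitters' processing notes, Trimmomatic 0.36 trimmed the reads. The sources used here do not give the aligner, genome build, window and caller settings, use of the input libraries, use of strand or the test behind the p-values. In the deposited tables, each region's name starts with diffreps, which is also the name of a tool that compares enrichment between groups. The deposited fold is a ratio, at least 4 in both tables, with its direction in another column, per the file headers. The deposited p-value and FDR are the authors', and the deposited score is that p-value as −log10. No count, intensity or coverage per library was used here, so depth and replicate spread are unknown and no count model, pairing check or batch check was possible.

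The 2 tables were joined, and regions of 200 bp or more were set beside the rest. The members, gene lists and families were chosen with earlier results of these data known. A region passes at an authors' FDR under 0.05. A gene name counts as having a long region if at least 1 of its regions is long. Implied zeros are folds within 1e-05 of a single decimal whose implied mean, after taking off the constant of 0.1, is at least 2.0. Steps of 0.503 (vector) and 0.123 (overexpression) in the implied means were read as 1 read over the 2 libraries of a condition: 97.7% of 1335 implied vector means below 6 were no further than 0.015 from a multiple, as were all of 116 for overexpression, on steps narrow enough that the tolerance covers a good part of them. Shares carry Clopper-Pearson intervals. KEGG pathway, GO component and GO function terms with at least 10 genes were counted as annotated in the tables; GO process terms were not used here. Some genes named by rule are not reported here. No enrichment or other test was run. The code was tested on simulated data.

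Named genes have symbols not beginning with LOC, RGD or AABR and are the 12 with the smallest p and the 6 longest regions in each direction, those with 2 or more long regions, list members with a long region, and the 3 regions on each side of 200 bp per table, where unnamed symbols are also given. Further passing regions described by function, the family members, calcium signalling genes, the unnamed genes and the shorter regions of genes with long ones were named after their values were seen. Of the 571 long regions, 524 carried a gene ID and 508 matched a GRCr8 RefSeq entry, used for current names only; 62 of these have another current symbol. Positions are as deposited, and no sequence is shown, since no genome of their build was used here. Python 3.11.15, pandas 2.3.3, numpy 2.4.6, scipy 1.17.1 and matplotlib 3.10.9 were used. Alternatives tried were other length limits (150, 199 and 300 bp), a stricter FDR of 0.01, 3 reads for an implied 0, and leaving out single-decimal folds, receptor and unnamed genes, the 379 bp regions or regions with an edge off the spacing of 20 bases.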

Additional observations from a re-analysis of the deposited data

How the results depend on the processing

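The lower share of long regions stayed between 86.3% and 88.8% in the 8 alternatives that moved it least, among them limits of 150 bp (87.7%) and 199 bp (87.9%), passing regions (87.2%) and genes in place of regions (88.0%). It was 92.8% with a limit of 300 bp (282 of 304 regions) and 80.8% without folds of a single decimal (135 of 167). Shorter regions moved more: without an implied 0, 157 of 239 shorter regions were lower, against 138 of 171 long ones. Long regions under an adjusted p of 0.01 numbered 51 (44 lower, 7 higher), and those of 300 bp or more that passed at 0.05 numbered 62 (58 lower and 4 higher); of the 43 named regions that pass at 0.05, 17 were not under 0.01. The median fold fell to 8.16 for lower and 4.32 for higher regions with 3 reads for an implied 0, and to 6.32 and 7.08 without folds of a single decimal, which follows from the constant of 0.1 in such folds. Genes with 2 or more long regions numbered 59 at 150 bp and 15 at 300 bp, and list genes with a long region 15 at 300 bp, as a stricter limit keeps fewer regions. The limits of 199 bp, the spacing of 20 bases and the length of 379 bp were chosen after seeing the data. No paired analysis was possible because single libraries have no values in the tables, so leaving out a replicate and other normalizations could not be run either.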

Other observations

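One pair of long regions overlapped while lying on opposite sides of the comparison. In the unnamed gene AABR06086628.1 on chromosome 16, a region from 14497361 to 14497592 was listed as higher in Mettl3-overexpressing cells (fold 23.2) and one from 14497261 to 14497480 as lower (fold 21.1) in the authors' deposited tables. They share 119 bp, and both have an adjusted p of 0.248. Equal values at distant places also occurred where signal was present in both conditions. Rlim had a region of 279 bp (X chromosome, 75646421 to 75646700) and one of 199 bp (74567861 to 74568060), both 4.57-fold lower in Mettl3-overexpressing cells at the same adjusted p of 0.00644 by the authors' deposited table. Zfp697 had 2 long regions, 27941 bp apart, each 5.07-fold lower (adjusted p 0.217, authors' deposited table). Pcdha7 and Pcdha9 each had one of 379 bp that was 5.74-fold lower (adjusted p 0.191, authors' deposited table). The reason for these equal values was not tested.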
